A study of Mus musculus with 4 samples.

Results

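Cyp17a1 and 9 other genes for enzymes that convert steroids in the liver were followed in isolated hepatocytes of tamoxifen-treated and vehicle-treated mice. The genes were chosen by symbol (Cyp17a1, Hsd3b2, Hsd3b3, Hsd3b5, Hsd17b2, Hsd17b6, Hsd11b1, Srd5a1, Srd5a2 and Akr1c6) because Cyp17a1 was far higher after tamoxifen in these same libraries. They are 10 of 22298 genes listed, and all 10 were matched. The values of the members in this comparison are therefore a description, given with no p. The hepatocytes came from wild-type male C57BL/6 mice, bought at 8 weeks of age, that had been fed a methionine- and choline-deficient (MCD) diet, a diet that produces fatty and inflamed liver, for 6 weeks. Tamoxifen, a drug that binds the estrogen receptor, was given at 100 mg/kg into the peritoneum on 5 consecutive days, and the control mice of the same strain, sex and diet received vehicle. The methods name corn oil as the solvent and describe the tamoxifen-treated and control mice as pair-fed. There were 2 libraries of tamoxifen and 2 of vehicle, and since no label ties a library to its own mouse, p-values cover only the spread between these 4 libraries, which may be technical.

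The enzymes act on the same few steroids in sequence. CYP17A1, a cytochrome P450 of the endoplasmic reticulum, hydroxylates pregnenolone and progesterone and splits the side chain to give androgens, and it draws electrons from the reductase POR, helped in the second step by cytochrome b5. The 3-beta-hydroxysteroid dehydrogenases make 4-ene-3-ketosteroids such as progesterone and androstenedione, the 17-beta-hydroxysteroid dehydrogenases and AKR1C enzymes exchange active 17-beta-alcohols for weaker 17-ketones and back, HSD11B1 regenerates active glucocorticoid, and the 5-alpha-reductases reduce the double bond of 4-ene-3-ketosteroids. In rodents Cyp17a1 is made mainly in gonads and, unlike in man, hardly in the adrenal, whereas liver is chiefly known for inactivating steroids and for sex differences in these enzymes that follow the rhythm of growth hormone.

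Part of the family is so alike in sequence that reads of one gene can be counted to another. Hsd3b2, Hsd3b3 and Hsd3b5 lie close together on the minus strand of chromosome 3, and their coding sequences are 1119 bases each. The coding sequences of Hsd3b2 and Hsd3b3 are 95.1% identical, and those of Hsd3b2 and Hsd3b5 are 80.3% identical. Of all runs of 50 bases in the Hsd3b3 transcript, 27.2% also occur in Hsd3b2. The first 120 coding bases of the 3 genes (GENCODE M21, GRCm38: chr3:98716441-98716560 for Hsd3b2, chr3:98753336-98753455 for Hsd3b3 and chr3:98630079-98630198 for Hsd3b5, minus strand, each within 1 exon) are shown because they let a reader see how little separates the first pair. Capitals mark the 26 positions at which the 3 genes do not all have the same base.
Hsd3b2: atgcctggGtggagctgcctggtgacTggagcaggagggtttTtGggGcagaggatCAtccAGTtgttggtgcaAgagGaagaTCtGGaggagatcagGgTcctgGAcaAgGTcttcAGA
Hsd3b3: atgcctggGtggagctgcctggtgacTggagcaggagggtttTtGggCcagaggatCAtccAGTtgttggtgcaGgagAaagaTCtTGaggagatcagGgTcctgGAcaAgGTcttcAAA
Hsd3b5: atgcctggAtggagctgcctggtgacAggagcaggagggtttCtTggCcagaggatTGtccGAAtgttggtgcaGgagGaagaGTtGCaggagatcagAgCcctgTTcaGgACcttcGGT

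Most capitals carry the same letter in Hsd3b2 and Hsd3b3 and another one in Hsd3b5. The sources used here do not say how reads that fit both Hsd3b2 and Hsd3b3 were shared out, so their single values are uncertain. The same holds for Hsd3b5 and Hsd3b4, 95.2% identical in coding sequence and with 18.2% of the 50-base runs of Hsd3b5 found in Hsd3b4. Akr1c6 and Akr1c20 are 92.3% identical, but 2.08% of the 50-base runs of Akr1c6 occur in Akr1c20, so fewer reads can fit both. Cyp17a1 lies on chromosome 19 (chr19:46667165-46673172, minus strand, GRCm38). Its coding sequence of 1521 bases opens at chr19:46672724-46672843 within 1 exon, with the start codon in capitals, and is shown as the transcript on which the comparison turns.
Cyp17a1: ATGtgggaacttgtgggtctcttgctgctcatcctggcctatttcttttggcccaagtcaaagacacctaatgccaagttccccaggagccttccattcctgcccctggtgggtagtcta

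The libraries themselves differed widely. Depth, estimated from the spacing of the lowest values, ran from about 16700000 to 17900000 fragments in tamoxifen and from 19700000 to 20750000 in vehicle. The top 100 genes held 62.6% and 65.0% of all FPKM in tamoxifen and 53.8% and 46.1% in vehicle. FPKM counts fragments for each kilobase of transcript as a share of the library, and the median difference of log2(FPKM + 1), tamoxifen minus vehicle, over all 11633 genes tested was -0.60 (0.06 after rescaling by median ratios and 0.09 after quantile normalization). Across those genes, which are not independent replicates, the tamoxifen libraries correlated at 0.981, the vehicle libraries at 0.958 and pairs across groups at 0.820 to 0.906. Hepatocyte markers dominated all libraries, with Alb between 26382 and 50399 FPKM.

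**Figure D1:**
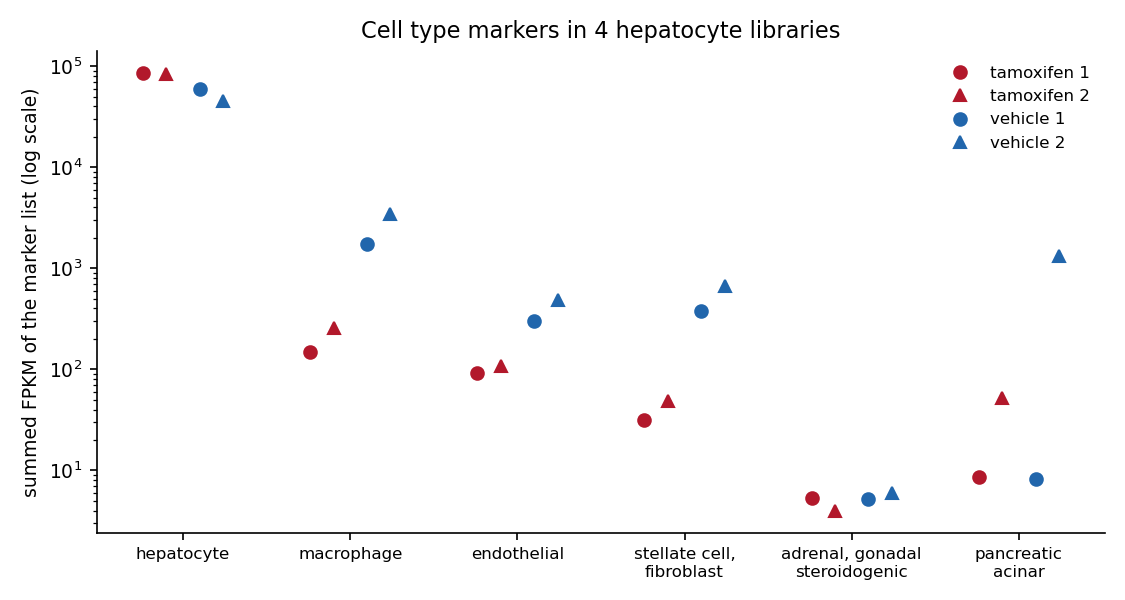
Summed FPKM of 6 lists of cell type markers (vertical axis, log scale) in each of the 2 tamoxifen libraries (red) and 2 vehicle libraries (blue). Macrophage, endothelial and stellate cell sums were lower in both tamoxifen libraries, adrenal and gonadal sums lay between 3.98 and 5.97 in all libraries, and the acinar sum of vehicle 2 stood apart at 1328.

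The labelled hepatocytes held RNA of other cell types, unequally between the groups. The sum of 14 macrophage markers was 148 and 255 FPKM in tamoxifen and 1726 and 3480 FPKM in vehicle, and 13 of the 14 were lower by limma at an adjusted p under 0.05, against 46.7% of all genes tested lower and 4.31% higher. Of the other lists, 8 of 8 endothelial markers (sums of 91.1 and 108 FPKM in tamoxifen, 299 and 480 FPKM in vehicle) and 10 of 10 stellate cell and fibroblast markers (31.8 and 48.6 FPKM in tamoxifen, 382 and 661 FPKM in vehicle) were lower. Of the stellate cell markers, 7 of the 10 passed the filter on low values (1 FPKM in at least 2 libraries) only through their vehicle libraries and so had to differ. Of 14 hepatocyte markers, 7 were higher and 7 did not pass (10 higher when rescaled by median ratios, 4 under quantile normalization). In bulk RNA, fewer cells of a type and less RNA per cell cannot be told apart. Vehicle 2 also carried pancreatic acinar markers at a sum of 1328 FPKM, against 8.31 FPKM in vehicle 1 and 8.57 and 51.7 FPKM in tamoxifen. The part of these other cells in the values below was not tested.

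Cyp17a1 was the member that differed most. It stood at 56.23 and 101.37 FPKM in the tamoxifen libraries and at 1.14 and 1.80 FPKM in the vehicle libraries. Both tamoxifen libraries lay far above both vehicle libraries, and the gap between the groups exceeded the spread within the tamoxifen pair. The means were 78.8 ± 31.9 FPKM in tamoxifen and 1.47 ± 0.467 FPKM in vehicle (SD, n = 2 libraries each), a ratio of 53.6. On the log2(FPKM + 1) scale, which understates changes of low genes, the difference was 4.97 (standard error 0.31), or 5.57 above the median of all genes. Counted from the highest difference down, it was 6th of the 11633 genes tested, an order that puts genes lower in tamoxifen last. The values correspond to about 1827 and 3073 fragments in tamoxifen and 42.9 and 64.4 fragments in vehicle, so the gene was detected in every library, with the larger counting error in vehicle. Without vehicle 2, the library with the acinar markers, the differences were 5.16 for Cyp17a1, 2.53 for Hsd17b6, 1.02 for Hsd17b2 and 0.60 for Srd5a2.

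Markers of classic steroid-producing tissue were mostly at or near 0 FPKM. Of 12 markers of adrenal and gonadal steroidogenic cells, 6 were listed at 0 in every library, among them Cyp11b1 and Cyp11b2, which complete adrenal steroid synthesis, Nr5a1, the regulator of steroidogenic tissue, and Cyp19a1, the aromatase. The sum of the 12 was 5.36 and 3.98 FPKM in tamoxifen and 5.25 and 5.97 FPKM in vehicle, the ranges overlapped, and most of the sum came from Akr1b7, an aldo-keto reductase. Cyp11a1, which makes pregnenolone from cholesterol, was listed at 0 in both tamoxifen libraries and at 0.02 and 0.17 FPKM in vehicle.

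**Figure D2:**
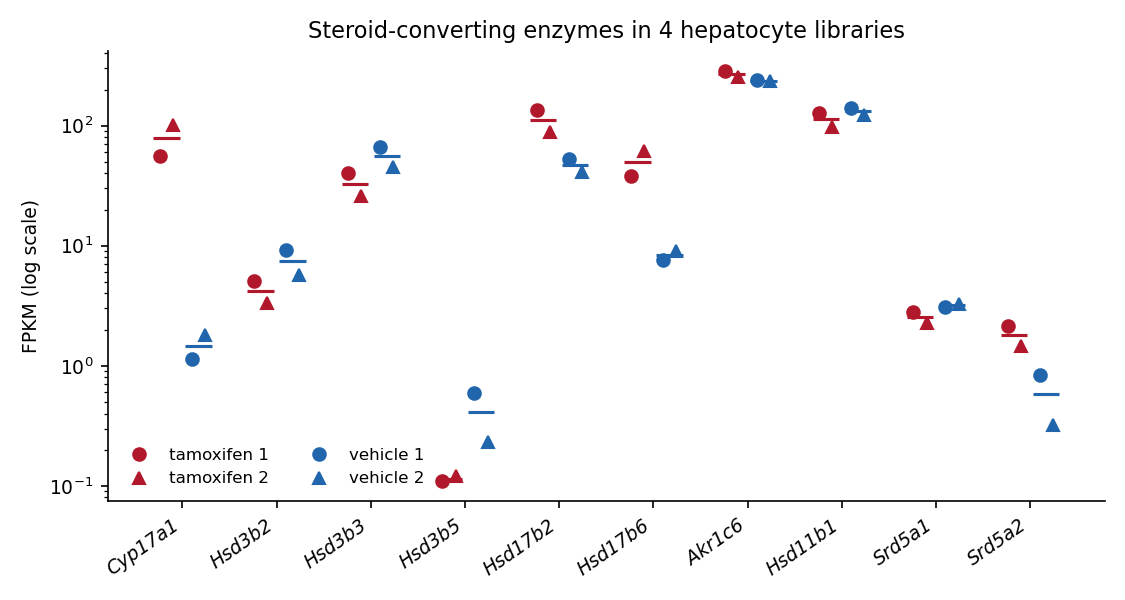
FPKM (vertical axis, log scale) of the 10 genes in each library, tamoxifen in red and vehicle in blue, with circles for library 1, triangles for library 2 and a short line at each group's mean. Cyp17a1 shows the widest gap, with 56.23 and 101.37 FPKM in tamoxifen against 1.14 and 1.80 FPKM in vehicle, and Hsd11b1 is the gene whose groups overlap.

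The 3-beta-hydroxysteroid dehydrogenases did not share this pattern. Hsd3b3, the more abundant of the liver forms, was at 40.06 and 25.85 FPKM in tamoxifen and at 67.03 and 45.66 FPKM in vehicle. Hsd3b2, its near copy, was at 5.13 and 3.32 FPKM in tamoxifen and at 9.15 and 5.66 FPKM in vehicle. For both genes the 2 tamoxifen libraries lay below the 2 vehicle libraries, but the gap was narrower than the spread within a group. The differences were -0.76 (standard error 0.28) for Hsd3b3 and -0.68 (standard error 0.29) for Hsd3b2, close to the median of all genes. Rescaling by median ratios turned the sign for Hsd3b3 (0.02) and left Hsd3b2 near 0 (-0.01), and quantile normalization gave -0.37 for Hsd3b3 and 0.12 for Hsd3b2, so neither has a direction that holds under every scaling. The ratio of Hsd3b3 to Hsd3b2 within a library was 7.81 and 7.79 in tamoxifen and 7.33 and 8.07 in vehicle. The pair thus kept nearly the same proportion in all 4 libraries, though how shared reads were split between them is not known.

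Hsd3b5, known in mouse as a form of male liver that reduces 3-ketosteroids, was barely detected in these male hepatocytes. It was at 0.11 and 0.12 FPKM in tamoxifen and at 0.59 and 0.23 FPKM in vehicle, about 3.05 and 3.10 fragments in tamoxifen against 19.0 and 7.02 in vehicle. It is the only member that did not reach 1 FPKM in at least 2 libraries, so it was not tested, and at so few fragments no fold is given.

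Hsd17b6 and Hsd17b2, both known as oxidative 17-beta-hydroxysteroid dehydrogenases, were higher in tamoxifen. Hsd17b6, which oxidises androgens, their diols and retinol, was at 37.98 and 62.03 FPKM in tamoxifen and at 7.6 and 9.09 FPKM in vehicle. The groups did not overlap, and the ratio of the means was 5.99. Its difference of 2.41 (standard error 0.27) ranked 45th of the genes tested, counted in the same way from the highest down. Hsd17b2, which turns estradiol into estrone and testosterone into androstenedione, was at 134.12 and 88.06 FPKM in tamoxifen and at 52.96 and 41.19 FPKM in vehicle. Its means were 111 ± 32.6 FPKM in tamoxifen and 47.1 ± 8.32 FPKM in vehicle (SD, n = 2 libraries each), a ratio of 2.36, with a difference of 1.20 (standard error 0.26). Both genes were higher under every scaling and with any 1 library left out. Hsd17b6 was higher in tamoxifen 2 than in tamoxifen 1, as was Cyp17a1, whereas Hsd17b2 was higher in tamoxifen 1.

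Akr1c6, the mouse 17-beta-hydroxysteroid dehydrogenase that reduces androstenedione to testosterone, was the most abundant member in every library. It was at 283.96 and 254.97 FPKM in tamoxifen and at 239.51 and 234.45 FPKM in vehicle, so the groups did not overlap but lay close together. Its difference was 0.18 (standard error 0.21), 0.98 after rescaling by median ratios and 0.19 after quantile normalization. Set against each other within a library, Hsd17b2 was 0.472 and 0.345 of Akr1c6 in tamoxifen and 0.221 and 0.176 of it in vehicle, a ratio that does not depend on a scaling factor of the library.

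Hsd11b1, which regenerates corticosterone from its inactive 11-keto form, was abundant in all 4 libraries and its groups overlapped. It was at 128.56 and 96.78 FPKM in tamoxifen and at 139.26 and 123.66 FPKM in vehicle. The difference was -0.23 (standard error 0.23) and became 0.56 after rescaling by median ratios and -0.08 after quantile normalization. H6pd, which makes the NADPH that HSD11B1 uses inside the endoplasmic reticulum, was at 122 and 112 FPKM in tamoxifen and at 76.6 and 59.0 FPKM in vehicle. The ratio of Hsd11b1 to H6pd was therefore 1.05 and 0.864 in tamoxifen and 1.82 and 2.09 in vehicle, with no overlap.

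The 2 steroid 5-alpha-reductases, which turn testosterone into dihydrotestosterone and begin the breakdown of glucocorticoids, were among the least abundant members. Srd5a1, the usual form of liver, was at 2.81 and 2.29 FPKM in tamoxifen and at 3.11 and 3.30 FPKM in vehicle. Its difference of -0.25 (standard error 0.23) turned positive after rescaling by median ratios (0.34) and after quantile normalization (0.64). Srd5a2 was at 2.16 and 1.45 FPKM in tamoxifen and at 0.84 and 0.32 FPKM in vehicle, which is about 62.1 and 38.9 fragments in tamoxifen and 28.0 and 10.1 fragments in vehicle. Both tamoxifen libraries were above both vehicle libraries, with a difference of 0.84 (standard error 0.28). Srd5a2 passed the filter on low values only through its tamoxifen libraries and so had to differ.

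**Figure D3:**
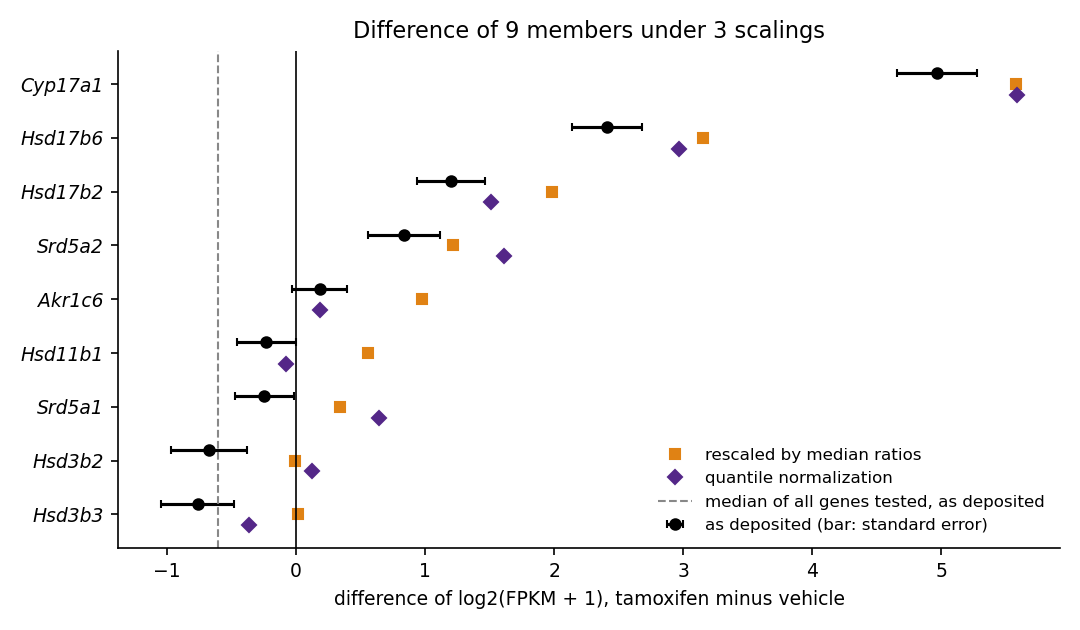
Difference of log2(FPKM + 1), tamoxifen minus vehicle (horizontal axis), for the 9 members tested, with values as deposited (black, with standard error), after rescaling by median ratios (orange) and after quantile normalization (purple); the dashed line marks the median of all genes, -0.60. Cyp17a1, Hsd17b6, Hsd17b2, Srd5a2 and Akr1c6 lie right of 0 under all 3 scalings, and the lowest 4 members take both signs.

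Of the 10 members, 9 passed the filter. By ranges alone, 5 of these lay above vehicle in both tamoxifen libraries, 3 lay below it and 1 overlapped, and the shares over all genes tested were 9.48% above and 71.9% below. The higher level of Cyp17a1 is what chose the members, and Srd5a2 had to differ to be tested, so nothing is read from these counts.

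Cyp17a1 changed its place most in the order of the levels. By mean FPKM in tamoxifen it was Akr1c6, Hsd11b1, Hsd17b2, Cyp17a1, Hsd17b6, Hsd3b3, Hsd3b2, Srd5a1, Srd5a2 and Hsd3b5, and the ranges of neighbours overlapped from Hsd11b1 through Hsd3b3. In vehicle it was Akr1c6, Hsd11b1, Hsd3b3, Hsd17b2, Hsd17b6, Hsd3b2, Srd5a1, Cyp17a1, Srd5a2 and Hsd3b5. There the overlapping neighbours were Hsd3b3 with Hsd17b2, Hsd17b6 with Hsd3b2, and Srd5a2 with Hsd3b5. Cyp17a1 thus stood 4th of 10 in tamoxifen and 8th of 10 in vehicle. The members summed to 691 and 636 FPKM in tamoxifen and to 521 and 465 FPKM in vehicle. Cyp17a1 took 8.14% and 15.9% of that sum in tamoxifen and 0.219% and 0.387% in vehicle. Its place and these shares restate the rise for which it was chosen.

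**Figure D4:**
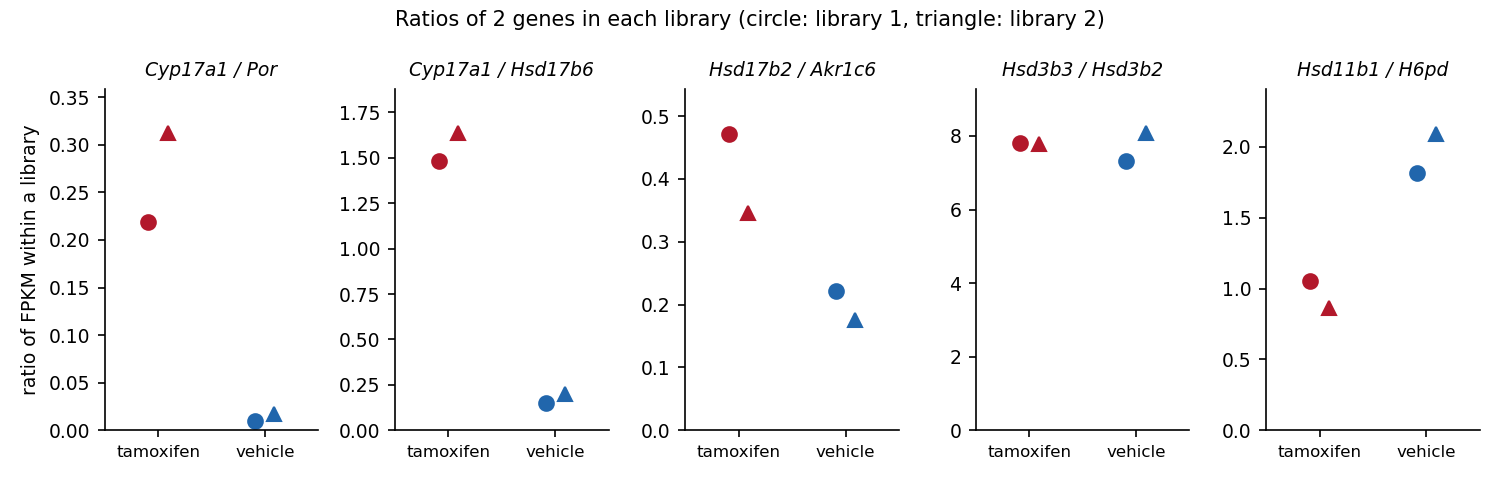
Ratio of the FPKM of 2 genes within each library (vertical axes, each from 0), tamoxifen in red at left and vehicle in blue at right, circles for library 1 and triangles for library 2. Cyp17a1 over Por, Cyp17a1 over Hsd17b6 and Hsd17b2 over Akr1c6 were higher in both tamoxifen libraries, and Hsd11b1 over H6pd was lower. Hsd3b3 over Hsd3b2 lay between 7.33 and 8.07 throughout. The ratios of Cyp17a1 restate the rise for which it was chosen.

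The reductase and cytochrome b5 that serve CYP17A1 were also higher, with smaller differences than the P450 itself, which was chosen for its rise. The differences of Por and Cyb5a lay within the range of 14 hepatocyte markers, whose median was 0.79. Of these 14, 7 were called higher, with differences from 0.71 for Asgr1 to 2.26 for Fgb. The other 7 did not pass, with differences from 0.03 for Cyp2e1 to 0.87 for Cps1. Por, the reductase that serves all microsomal P450s, was at 257 and 325 FPKM in tamoxifen and at 114 and 108 FPKM in vehicle, a rise of 1.37 in log2 (limma standard error 0.22, adjusted p = 0.00288). Cyb5a, cytochrome b5, was at 1323 and 1227 FPKM in tamoxifen and at 646 and 580 FPKM in vehicle (log2 difference 1.06, standard error 0.25, adjusted p = 0.0118 from limma). Cyb5a did not pass under quantile normalization (0.50), without tamoxifen 1 (1.00) or without tamoxifen 2 (1.11). The limma difference of H6pd, whose values stand above, was 0.79 (standard error 0.22, adjusted p = 0.0205), higher in tamoxifen, and it did not pass without tamoxifen 1 (0.73), tamoxifen 2 (0.85) or vehicle 2 (0.61). Of the 7 electron and cofactor partners tested these 3 were higher and 4 did not pass (4 higher when rescaled by median ratios), among them Fdx1 and Fdxr, which serve the mitochondrial P450s. Cyp17a1 was 0.219 and 0.312 of Por in tamoxifen and 0.0100 and 0.0167 of it in vehicle. The ratio of Cyp17a1 to Hsd17b6 was 1.48 and 1.63 in tamoxifen and 0.150 and 0.198 in vehicle. Both ratios restate the rise for which Cyp17a1 was chosen.

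The other genes of steroid metabolism, receptors and regulation came from 10 lists of 117 genes, of which 116 were matched and 86 tested. Of these 86, 23 were higher, 13 were lower and 50 did not pass, against 4.31% higher and 46.7% lower over all genes. Rescaling by median ratios gave 45 higher and 4 lower, against 16.6% and 19.4% over all genes, and quantile normalization 27 higher and 4 lower, against 13.4% and 13.7%. Among the genes called as deposited, Cux2 and Cyp2c69 passed the filter only through tamoxifen and Dhrs9 and Prom1 only through vehicle, so these 4 had to differ. The lists' median difference was 0.08, against -0.60 over all genes tested. The lists were drawn up with results of these libraries known, so the counts describe them only. Leaving out vehicle 2 lowered the number higher to 12, and leaving out tamoxifen 2 lowered the number lower to 7.

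**Figure D5:**
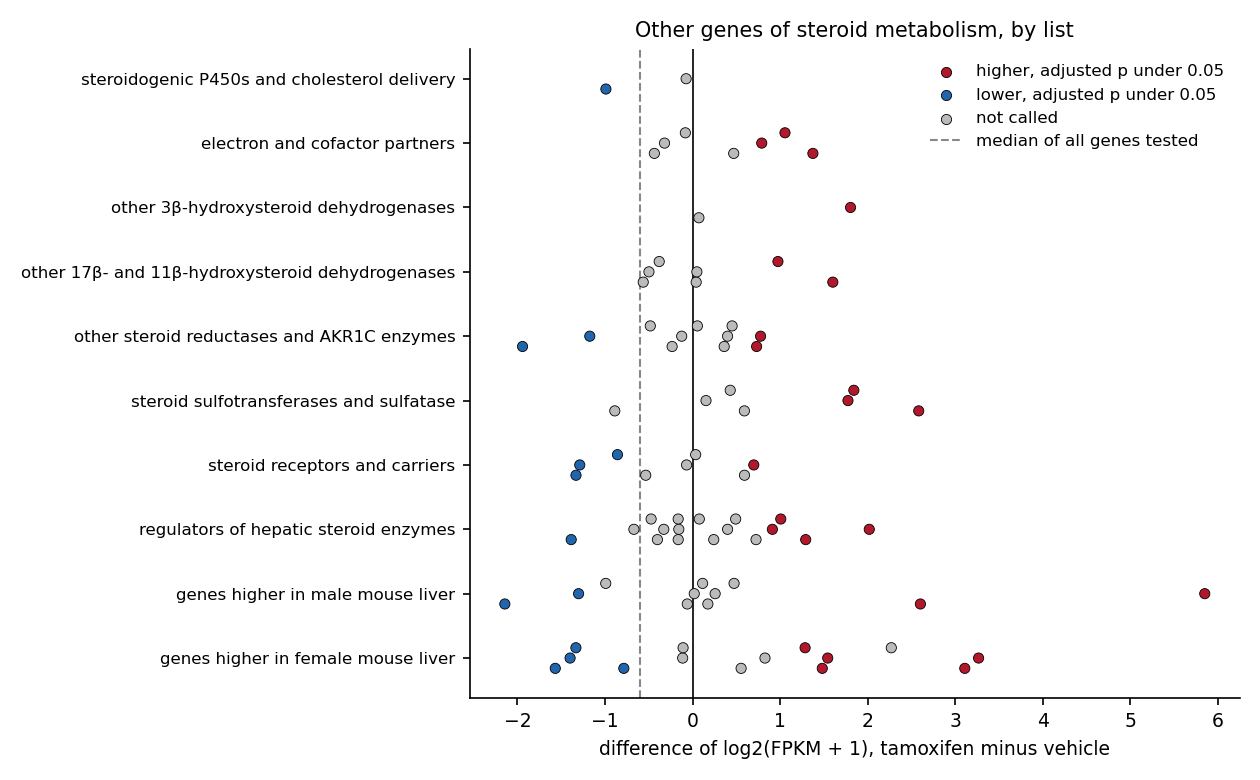
Difference of log2(FPKM + 1), tamoxifen minus vehicle (horizontal axis), of each tested gene in 10 lists (rows), red for higher and blue for lower at an adjusted p under 0.05 and grey for the rest; the dashed line marks the median of all genes tested, -0.60. Red points outnumber blue ones, 23 against 13 of 86, and the point farthest from 0 is Serpina1e at 5.85.

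The delivery of cholesterol and the first P450s of steroid synthesis gave little signal. Of 8 genes 2 were tested. Stard3, a cholesterol carrier of late endosomes, was at 5.69 and 5.81 FPKM in tamoxifen and at 9.49 and 16.13 FPKM in vehicle (log2 difference -0.99, standard error 0.27, adjusted p = 0.0204 from limma), a call that neither rescaling kept (-0.28 under each) and that was also lost without tamoxifen 1 (-0.98), tamoxifen 2 (-1.003) or vehicle 2 (-0.64). Tspo, an outer mitochondrial membrane protein, was at 45.47 and 47.75 FPKM in tamoxifen and at 43.23 and 55.70 FPKM in vehicle and did not pass.

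Among the remaining dehydrogenases 3 passed, each of them higher. Nsdhl, a sterol dehydrogenase of cholesterol synthesis, was at 42.39 and 61.07 FPKM in tamoxifen and at 14.61 and 13.13 FPKM in vehicle (log2 difference 1.81, standard error 0.24, adjusted p = 0.00143 from limma). Hsd17b7, which acts both on estrone and in cholesterol synthesis, was at 33.67 and 30.31 FPKM in tamoxifen and at 20.03 and 12.35 FPKM in vehicle (0.98, adjusted p = 0.0174 from limma). Its call was lost without tamoxifen 1 (0.90), tamoxifen 2 (1.05) or vehicle 2 (0.65). Hsd17b10, a mitochondrial enzyme of isoleucine and steroid oxidation, was at 158 and 138 FPKM in tamoxifen and at 52.45 and 43.73 FPKM in vehicle (1.60, adjusted p = 0.00144 from limma). Hsd3b7 and Hsd17b13, each the most abundant of its list, did not pass. Hsd3b7, of bile acid synthesis, was at 156 and 116 FPKM in tamoxifen and at 151 and 108 FPKM in vehicle, and Hsd17b13, a lipid droplet protein, was at 249 and 249 FPKM in tamoxifen and at 240.2 and 242 FPKM in vehicle. In all, 1 of 2 other 3-beta- and 2 of 7 other 17-beta- and 11-beta-hydroxysteroid dehydrogenases tested were higher (1 of 2 and 4 of 7 when rescaled by median ratios), and the rest did not pass.

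As deposited, calls among the other reductases went both ways. Of 11 tested, 2 were lower, 2 were higher and 7 did not pass, against 46.7% lower and 4.31% higher over all genes. Rescaling by median ratios gave 7 higher and 1 lower, against 16.6% higher and 19.4% lower over all genes. Dhrs9, a retinol and steroid dehydrogenase, was at 0.94 and 0.68 FPKM in tamoxifen and at 6.97 and 5.04 FPKM in vehicle (log2 difference -1.94, standard error 0.25, adjusted p = 0.00138 from limma), and it was tested only because of its vehicle level. Srd5a3, the third member of the 5-alpha-reductase family, which acts in dolichol synthesis, was at 5.02 and 4.99 FPKM in tamoxifen and at 10.54 and 14.91 FPKM in vehicle (-1.17, adjusted p = 0.00647 from limma), and neither rescaling kept the call. Akr1c19, an AKR1C enzyme of the Akr1c6 cluster on chromosome 13, was at 28.18 and 27.60 FPKM in tamoxifen and at 16.96 and 14.82 FPKM in vehicle (0.78, adjusted p = 0.0155 from limma), and did not pass without tamoxifen 1 (0.76), tamoxifen 2 (0.79) or vehicle 2 (0.69). Akr1c14, which reduces 3-ketosteroids, was at 84.12 and 93.74 FPKM in tamoxifen and at 78.15 and 57.51 FPKM in vehicle and did not pass, nor did Cbr1, a carbonyl reductase.

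Among the sulfotransferases, which make steroids soluble and inactive, Sult2a1, Sult2a2 and Sult1d1 spread widely between the tamoxifen libraries. Of 7 tested 3 were higher and 4 did not pass (6 higher when rescaled by median ratios, 3 under quantile normalization). Sult2a1 was at 5.95 and 29.27 FPKM in tamoxifen and at 0.97 and 1.97 FPKM in vehicle (log2 difference 2.58, standard error 0.61, adjusted p = 0.0111 from limma). Sult2a2 was at 58.89 and 199 FPKM in tamoxifen and at 25.15 and 34.52 FPKM in vehicle (1.84, standard error 0.50, adjusted p = 0.0188 from limma). Both act on hydroxysteroids, belong to a family of close copies whose shared reads make single values uncertain, and stood much higher in tamoxifen 2 than in tamoxifen 1. Neither passed without vehicle 1 (2.29 for Sult2a1 and 1.62 for Sult2a2) or without vehicle 2 (2.88 and 2.06), and Sult2a2 did not pass without tamoxifen 2 (0.97). Sult1d1, a sulfotransferase of phenols and catecholamines, was at 56.17 and 119 FPKM in tamoxifen and at 27.66 and 19.38 FPKM in vehicle (1.78, adjusted p = 0.00634 from limma; 1.53 and not called without vehicle 2). The most abundant, Sult1a1, of phenols, and Sult1e1, of estrogens, did not pass (0.59 and 0.43). Sult1e1 was at 219 and 252 FPKM in tamoxifen and at 174 and 174 FPKM in vehicle.

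Of 8 receptors and carriers tested, 3 were lower, 1 was higher (Fkbp5, a cochaperone of the receptors) and 4 did not pass. Over all genes tested, 46.7% were lower and 4.31% higher. Rescaling by median ratios gave 0 lower and 3 higher, and quantile normalization 1 lower and 3 higher. Esr1, the estrogen receptor to which tamoxifen binds, lay between 3.32 and 4.0 FPKM in all 4 libraries, and its difference was 0.04 (standard error 0.23, adjusted p = 0.903 from limma; 0.66 after rescaling by median ratios and 0.90 after quantile normalization, both passing as higher). Nr3c1, the glucocorticoid receptor, was at 10.89 and 11.59 FPKM in tamoxifen and at 18.29 and 24.48 FPKM in vehicle (-0.86, adjusted p = 0.0162 from limma), which neither rescaling kept and which was lost without tamoxifen 1 (-0.82), tamoxifen 2 (-0.90) or vehicle 2 (-0.66). Hsp90aa1, the chaperone that holds unliganded receptors, was at 38.26 and 27.93 FPKM in tamoxifen and at 78.52 and 89.47 FPKM in vehicle (-1.33, adjusted p = 0.00348 from limma; -0.55 and not called after rescaling by median ratios). Serpina6, the corticosteroid-binding globulin, was at 57.92 and 20.69 FPKM in tamoxifen and at 113 and 65.93 FPKM in vehicle, with an adjusted p of 0.0488 from limma that 8 of 11 alternatives did not keep, among them those without tamoxifen 2 (-0.57), vehicle 1 (-0.90) or vehicle 2 (-1.67). Pgrmc1, a haem protein that binds P450s, was the most abundant gene of this list and did not pass (0.59).

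Of 17 regulators tested, 4 were higher, 1 was lower and 12 did not pass (9 higher when rescaled by median ratios, 5 under quantile normalization). Cux2, a female-biased repressor of male-biased liver genes, was at 4.72 and 5.64 FPKM in tamoxifen and at 0.36 and 0.70 FPKM in vehicle (log2 difference 2.02, standard error 0.25, adjusted p = 0.00116 from limma). Bcl6, a male-biased repressor of female-biased liver genes, was at 1.82 and 1.43 FPKM in tamoxifen and at 4.14 and 8.11 FPKM in vehicle (-1.39, standard error 0.31, adjusted p = 0.00945 from limma). Cux2 passed the filter only through tamoxifen and so had to differ, and the call for Bcl6 was lost under both rescalings and without tamoxifen 2 (-1.28). Ghr, the growth hormone receptor, was at 90.88 and 78.89 FPKM in tamoxifen and at 53.09 and 37.32 FPKM in vehicle (0.91, adjusted p = 0.0161 from limma) and did not pass without tamoxifen 1 (0.81), tamoxifen 2 (1.01) or vehicle 2 (0.66). Stat5b, which carries the growth hormone signal, was at 7.90 and 8.33 FPKM in tamoxifen and at 11.16 and 12.16 FPKM in vehicle and did not pass. Nr0b2, the corepressor SHP, was at 17.30 and 12.79 FPKM in tamoxifen and at 6.55 and 4.57 FPKM in vehicle (1.29, adjusted p = 0.00592 from limma; 1.09 and not called without tamoxifen 1). Nr5a2, the liver relative of the steroidogenic regulator Nr5a1, was at 9.98 and 9.42 FPKM in tamoxifen and at 13.44 and 12.82 FPKM in vehicle and did not pass. Hnf4a, a main hepatocyte regulator, was at 121 and 149 FPKM in tamoxifen and at 78.34 and 55.95 FPKM in vehicle (1.01, adjusted p = 0.0122 from limma) and did not pass without tamoxifen 2 (0.86) or vehicle 2 (0.77). The drug receptors Nr1i2, PXR, and Nr1i3, CAR, did not pass as deposited (0.49 and 0.24) and passed as higher after rescaling by median ratios (1.24 and 1.02).

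Genes known for a sex bias in mouse liver did not move as one. Of 11 genes of male liver tested, 2 were lower and 2 were higher. Of 14 genes of female liver, 4 were lower and 5 were higher. Over all genes tested, 46.7% were lower and 4.31% higher. Rescaling by median ratios gave 2 lower and 3 higher of the male genes and 1 lower and 7 higher of the female genes. With that rescaling 19.4% of all genes were lower and 16.6% higher. Serpina1e, a protease inhibitor, was at 467 and 967 FPKM in tamoxifen and at 12.80 and 8.85 FPKM in vehicle (log2 difference 5.85, standard error 0.35, adjusted p = 0.000297 from limma). Cyp7b1, an oxysterol and steroid hydroxylase of male liver, was at 51.68 and 48.73 FPKM in tamoxifen and at 8.87 and 6.19 FPKM in vehicle (2.60, adjusted p = 0.000541 from limma). Mup20, a urinary protein of males, went the other way, at 314 and 218 FPKM in tamoxifen and at 1331 and 1010 FPKM in vehicle (-2.14, adjusted p = 0.00151 from limma). Gstp1, a glutathione transferase and the second most abundant of the male list by mean, did not pass (-0.06). Of the female list, Cyp2c69 was at 12.66 and 17.69 FPKM in tamoxifen and at 0.60 and 0.72 FPKM in vehicle (3.27, adjusted p = 0.000476 from limma), tested only because of its tamoxifen level. Cyp3a41a was at 595 and 820 FPKM in tamoxifen and at 107 and 60.05 FPKM in vehicle (3.11, adjusted p = 0.000768 from limma). Cyp2a4, a testosterone hydroxylase, was at 216 and 110 FPKM in tamoxifen and at 470 and 447 FPKM in vehicle (-1.57, adjusted p = 0.00725 from limma; -0.77 and not called after rescaling by median ratios). It did not pass without tamoxifen 2 (-1.08) or vehicle 2 (-1.60) either. Serpina1e, Mup20 and these P450s belong to families of close copies, so reads may have been shared between copies.

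The genes whose profile over the 4 libraries was nearest to that of Cyp17a1 were sought among 7535 with a mean of at least 5 FPKM. By Euclidean distance between centred log2(FPKM + 1) values they were Wfdc21 (0.66), Saa1 (0.76), Cyp2c54 (0.86), Hist2h2aa2 (1.03) and Saa2 (1.08). Saa1 and Saa2 are serum amyloid genes of the acute phase, Cyp2c54 is a P450 of the Cyp2c family and Hist2h2aa2 is a histone gene. Hist2h2aa2 was at 12.99 and 17.84 FPKM in tamoxifen and listed at 0 in both vehicle libraries, so its difference depends on the pseudocount. Sharing of reads with close copies was not examined for these genes. Saa1 was at 208 and 519 FPKM in tamoxifen and at 13.05 and 19.08 FPKM in vehicle, so it shared with Cyp17a1 the higher level in tamoxifen 2. Wfdc21 was at 341 and 338 FPKM in tamoxifen and at 6.99 and 12.63 FPKM in vehicle. With 4 libraries, likeness of profile rests mostly on the gap between the groups. The profiles were not scaled, so only genes with a gap about as wide as that of Cyp17a1 can be near. Hsd17b6, the member with the next largest difference (2.41), could not be, and nothing is read from the absence of steroid enzymes.

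Promoters of the members were searched for motifs of regulators named above. RefSeq (GRCm38.p6) gave 10 promoters, 250 bases before to 50 after a start site, for 8 members, and Cyp17a1 and Hsd17b2 had no entry. The pattern CAAGGNCA, with any base at N, was searched for NR5A2 and found in 3 of the 10 on either strand. These were Akr1c6 (CAAGGACA) and both overlapping promoters of Hsd17b6 (CAAGGGCA), and 6.71% of all 32851 promoters held the pattern. The base at N differs between the 2 genes, and whether NR5A2 binds either form was not tested. The HNF4A motif CAAAGNNCA was found in 3 of the 10, in Hsd3b5 and both promoters of Hsd3b3, and in 6.36% of all. The motifs TTCNNNGAA for STAT5 (8.30% of all promoters), GNACA and TGTNC with 3 bases between them for the glucocorticoid receptor (0.475%), and a repeat of AGNTCA with 4 bases between the copies for CAR and PXR (0.125%) were not found in these windows, which says nothing of the factors. The Hsd17b6 promoter (chr10:128007562-128007861, minus strand) is shown as that of the member with the largest difference among those with an entry. The stretch of the Akr1c6 promoter around its match (chr13:4434271-4434338, plus strand) is shown for comparison. Capitals mark the letters that match CAAGGNCA.
Hsd17b6: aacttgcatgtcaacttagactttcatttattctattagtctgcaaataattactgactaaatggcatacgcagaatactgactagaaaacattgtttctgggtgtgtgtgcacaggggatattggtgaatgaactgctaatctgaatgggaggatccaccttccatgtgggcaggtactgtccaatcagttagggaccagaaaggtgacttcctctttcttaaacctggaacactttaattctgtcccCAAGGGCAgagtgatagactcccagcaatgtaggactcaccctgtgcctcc
Akr1c6: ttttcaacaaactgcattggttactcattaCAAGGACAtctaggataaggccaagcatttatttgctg

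In Hsd17b6 the letters lie at positions -1 to 6 from 1 start site and in Akr1c6 at -42 to -35. The stretches around the HNF4A letters in Hsd3b3 (chr3:98763086-98763154) and Hsd3b5 (chr3:98645540-98645608, at a RefSeq start upstream of the annotated GENCODE gene) are shown because these paralogs both hold it. Both lie on the minus strand and hold the motif on the opposite strand, in capitals, at positions 4 to 12 in Hsd3b3 and -44 to -36 in Hsd3b5.
Hsd3b3: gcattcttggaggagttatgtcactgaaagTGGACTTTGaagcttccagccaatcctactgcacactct
Hsd3b5: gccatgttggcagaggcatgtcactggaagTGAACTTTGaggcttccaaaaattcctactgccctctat

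These 2 genes hold the motif in letters that are not identical. Hsd3b3 was at 25.85 to 67.03 FPKM and Hsd3b5 at 0.11 to 0.59 FPKM over the 4 libraries. Hsd17b6 was higher in both tamoxifen libraries, and Akr1c6, with a match to the same pattern, was close to its level in vehicle. A match of letters is a description and not a shown site, and its part in these levels was not tested.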

How the data were processed

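RNA of isolated hepatocytes (oligo(dT) selection, NEBNext Ultra kit, Illumina NovaSeq) was measured in 2 tamoxifen and 2 vehicle libraries. The authors deposited FPKM values rounded to 2 decimals. The submitters' processing notes name HISAT2, Bowtie2, RSEM, StringTie 1.3.1 and fastp 0.18.0 without their roles. Build, annotation and the treatment of reads that fit several genes: not given in the sources used here. Such reads affect the near-identical paralogs.

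The 10 members and all gene lists were chosen with earlier results of these data known. Genes that reached 1 FPKM in 2 or more libraries were compared with limma 3.58.1 (lmFit, eBayes with trend, R 4.3.3) as log2(FPKM + 1), adjusted by Benjamini-Hochberg over all genes tested, with a call at an adjusted p under 0.05. Members entered that fit, but the comparison chose them and no p is given for them. The code was tested on simulated data. Named besides the members were, in each list, the 3 called genes with the largest difference and the 2 most abundant, fixed receptors, regulators and partners, and the 5 profiles nearest to Cyp17a1. A gene that this rule would name is not reported here. Symbols came from GENCODE M21. Of the listed genes, 1 was matched through a RefSeq synonym and Sts was not analysed here. Depth was estimated from low FPKM values times transcript length, of which 87.5% to 92.8% per library came within 0.2 of a whole fragment, and fragment numbers use 1 transcript per gene and cover counting error only. Alternatives were rescaling by median ratios of genes above 0 in every library, quantile normalization, a pseudocount of 0.1, no filter, a mean of at least 5 FPKM, sample weights, a replicate block and each library left out. Motifs and identities were computed with Python 3.11.15 and Biopython 1.88, and figures with matplotlib 3.10.9.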

Additional observations from a re-analysis of the deposited data

How the results depend on the processing

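The direction of Cyp17a1, Hsd17b6, Hsd17b2, Srd5a2 and Akr1c6 was the same in every alternative run for them. For Akr1c6 the difference as deposited (0.18) was smaller than its standard error (0.21). Cyp17a1 lay between 4.55 without tamoxifen 2 and 5.62 with a pseudocount of 0.1. Rescaling by median ratios moved all 9 tested members by more than the spread between libraries, and quantile normalization moved 5. The cause was not tested. Over all genes tested, 5432 were lower and 501 higher. Rescaling by median ratios gave 2258 and 1929, and quantile normalization 1595 and 1563. Of 7536 genes that averaged 5 FPKM or more, 3182 were lower. Over all 11633 genes, the counts with 1 library left out ran from 2555 to 5531 lower and from 263 to 500 higher, on the assumption that the lone library varies like the other group. For the other steroid pathway genes, 13 lower and 23 higher became 4 and 45 when rescaled by median ratios, 4 lower under quantile normalization and 8 lower under the stricter filter, and ran from 7 to 12 lower and from 12 to 23 higher with 1 library left out. Tspo turned to 0.71 after rescaling by median ratios, where it passed as higher. Of 27 named pathway genes called, 10 kept the call in every setting run for them (3 of these, Cux2, Cyp2c69 and Dhrs9, had to differ to be tested) and 17 lost it in at least 1. The libraries of the 2 groups share the numbers 1 and 2, and the deviations of tamoxifen 1 and vehicle 1 correlated at 0.2834 over 11633 genes, but 2 pairs do not establish a pairing. With the replicate number as a block, 5863 genes were lower and 573 higher, and 17 and 26 of the pathway genes. Depth limits Hsd3b5, at about 3.05 and 3.10 fragments in tamoxifen, and Srd5a2, at 28.0 and 10.1 in vehicle.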
